A study of Mus musculus with 10 samples.

Results

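The genes of the mitochondrial protein import machinery were followed in jejunum from mice with and without a yeast NADH dehydrogenase in the intestinal epithelium. The members are defined by gene symbol. They comprised each gene whose symbol is Timm or Tomm followed by a number, with the -ps pseudogene names left out, together with Samm50, Chchd4, Gfer, Pmpca, Pmpcb, Grpel1, Dnajc19, Pam16, Mtx1 and Mtx2. The members were 34 of the 45707 genes listed, and 32 of these passed the filter on low values, which kept a gene when 5 or more mice reached 10 normalized counts. The other two, Tomm20l and Timm8a2, had 1 and 6 reads over all libraries.

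The libraries came from 5 Vil-Cre and 5 Vil-Cre:NDI1 male littermates aged 8 to 12 weeks, 1 library per mouse. All mice had been fasted for 16 to 18 h and given water by gavage, and the tissue was taken 1 h later. NDI1 is a single-protein yeast enzyme that passes electrons from NADH to ubiquinone without pumping protons. In the Vil-Cre:NDI1 mice its gene stood at the ROSA26 locus behind a loxP-flanked stop, which Cre under the villin promoter removes in epithelial cells. The Vil-Cre controls carried the same Cre transgene, so both groups express Cre. The libraries were made from flushed jejunal tissue and not from sorted epithelium, so muscle, immune and stromal RNA was read as well. In such bulk tissue, fewer cells of a type and less RNA per cell cannot be told apart.

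Nearly all mitochondrial proteins are made in the cytosol and must be imported. Proteins enter through the pore of the TOM complex in the outer membrane. From there, precursors with a cleavable presequence go through the TIM23 channel and are pulled into the matrix by the Hsp70-driven import motor, where the processing peptidase cuts off the presequence. Metabolite carriers are guided across the intermembrane space by small TIM chaperones to the TIM22 translocase, barrel proteins are folded into the outer membrane by the SAM complex, and small cysteine-rich proteins are trapped by the disulfide relay of Chchd4 and Gfer. Nuclear-encoded subunits of complex I, the enzyme that NDI1 can bypass, use these routes.

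RefSeq promoter windows on GRCm38.p6, each 250 bases before to 50 bases after a gene's start, were matched by symbol for 31 of the 34 members, all but Timm21, Tomm7 and Tomm40l. The 80 bases before the start are shown for 4 members chosen among those that hold the ETS core CCGGAAG on either strand, with the core in capitals. Pmpcb and Mtx2 are shown because they spanned the largest fold from lowest to highest mouse, and Timm8b and Tomm22 because they had the highest levels per kb of the members with the core. All 4 lie on the plus strand, at chr5:21737080-21737159 for Pmpcb, chr2:74825732-74825811 for Mtx2, chr15:79670788-79670867 for Tomm22 and chr9:50603821-50603900 for Timm8b.
Pmpcb: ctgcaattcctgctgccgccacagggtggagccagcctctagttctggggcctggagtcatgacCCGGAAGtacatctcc
Mtx2: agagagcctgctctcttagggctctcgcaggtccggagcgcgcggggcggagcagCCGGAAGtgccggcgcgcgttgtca
Tomm22: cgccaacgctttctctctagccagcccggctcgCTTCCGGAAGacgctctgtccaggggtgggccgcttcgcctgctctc
Timm8b: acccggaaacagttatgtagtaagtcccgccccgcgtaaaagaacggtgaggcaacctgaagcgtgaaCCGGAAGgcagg
The core began at position -16 in Pmpcb, -25 in Mtx2 and -12 in Timm8b, counted from the start, and in Tomm22 a copy on each strand overlapped from position -47. Over the 300-base windows, 13 of the 31 members (41.9%) held the core in any window of the gene. Counted the same way, 19.0% of the 10302 genes tested that had a promoter held it. Counted per window, 8.86% of all 32851 promoters did. The 31 include Tomm20l and Timm8a2, which failed the filter that the genes tested had passed. The 13 were Grpel1, Mtx1, Mtx2, Pmpca, Pmpcb, Timm10, Timm10b, Timm23, Timm8a2, Timm8b, Tomm22, Tomm34 and Tomm70a. Of the other 7 motifs searched on both strands, the NRF1 palindrome and the CRE were in no member, against 2.19% and 3.5% of the genes tested. The YY1 motif was in Mtx1 and Timm50, 6.45% of the members against 2.24% of the genes tested. CACGTG (E-box) was in 5 members, 16.1% against 11.4% of the genes tested. CCAAT was in 32.3% against 42.5%, GGGCGG (GC box) in 61.3% against 67.3% and TATAAA in 9.68% against 9.11%. Overlaps between motifs were not removed, and a match of letters is a description of the window and not a binding site.

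The libraries held 10145705 to 12371530 reads on genes. The sum of the members' normalized counts lay between 13122 and 15059 in each mouse, and the tested member with the fewest reads in any library had 64. NDI1, the check of the genotype labels, had 982 to 2575 normalized counts in the Vil-Cre:NDI1 mice and 1 read over all Vil-Cre libraries. Each of the 11 enterocyte markers passed the filter. Their summed normalized counts were 364000 to 584100 in Vil-Cre and 542100 to 710200 in Vil-Cre:NDI1, and their log2 fold changes were all positive with a median of 0.24, none with an unadjusted p under 0.05 in limma. The 6 B and plasma cell markers tested had a median of -0.63 and the 7 goblet cell markers of -0.21, also with none under that p. All 5 hepatocyte markers tested were lower in Vil-Cre:NDI1, with a median of -1.03. Of these, 2 had an unadjusted p under 0.05 in limma and 0 an adjusted p under 0.05. No other marker list had a gene under that unadjusted p. The part of these cell markers in the genotype comparison of the import members was not tested. Several libraries stood apart from their genotype mean in cell markers, as median log2 deviations. In Vil-Cre 5 the enterocyte markers were at -0.54, the proliferating crypt markers at 0.51 and the B and plasma cell markers at 1.87. In Vil-Cre 4 the hepatocyte markers were at -3.37, the adipocyte markers at -1.56 and the Paneth cell markers at -1.29. In Vil-Cre:NDI1 1 the adipocyte markers were at -3.97, the hepatocyte markers at -1.66 and the B and plasma cell markers at 1.09. In Vil-Cre:NDI1 4 the adipocyte markers were at 1.3, the hepatocyte markers at 0.895 and the crypt stem cell markers at 0.64. In Vil-Cre 2 the adipocyte markers were at 1.88 and the B and plasma cell markers at -0.793. Other marker lists also deviated in these mice. The median deviation of the import members was -0.0061 in Vil-Cre 5, -0.028 in Vil-Cre 4 and -0.0385 in Vil-Cre 2. It was 0.024 in Vil-Cre:NDI1 1 and -0.029 in Vil-Cre:NDI1 4. The members deviated furthest in Vil-Cre:NDI1 5 (-0.0975) and Vil-Cre 1 (0.0611), which also stood apart in cell markers. In Vil-Cre:NDI1 5 the T cell markers were at -1.08 and the Paneth cell markers at -0.89. In Vil-Cre 1 the hepatocyte markers were at 1.54 and the adipocyte markers at 0.93. The part of these markers in the members' deviations was not tested.

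Levels were taken per kb of merged exon. Which transcripts were expressed was not measured, so an order of genes on this scale rests on the annotated length. The levels spanned from 24.7 to 595 normalized counts per kb over the 32 members that passed the filter (mean of 10 mice). Their median was 110, against 44.5 for all genes tested, and 30 of the 32 lay above that value. The chaperone Timm8b came first with 518 to 709 per kb over the 10 mice. Timm13 (371 to 524), the small pore subunit Tomm6 (388 to 474) and the receptor Tomm22 (365 to 482) followed, and their ranges overlapped. Next were Tomm7 with 315 to 431, the channel Timm23 with 328 to 427 and Tomm5 with 295 to 391, again with overlapping ranges. At the lower end stood Timm9 (15.4 to 30.0), Timm21 (25.2 to 41.0) and Chchd4 (37.0 to 60.6). With the longest annotated transcript as the length, Timm8b still ranked first and Timm9 last of the 32, while Timm23 moved from rank 6 to 2 and Mtx1 from 23 to 14.

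**Figure D1:**
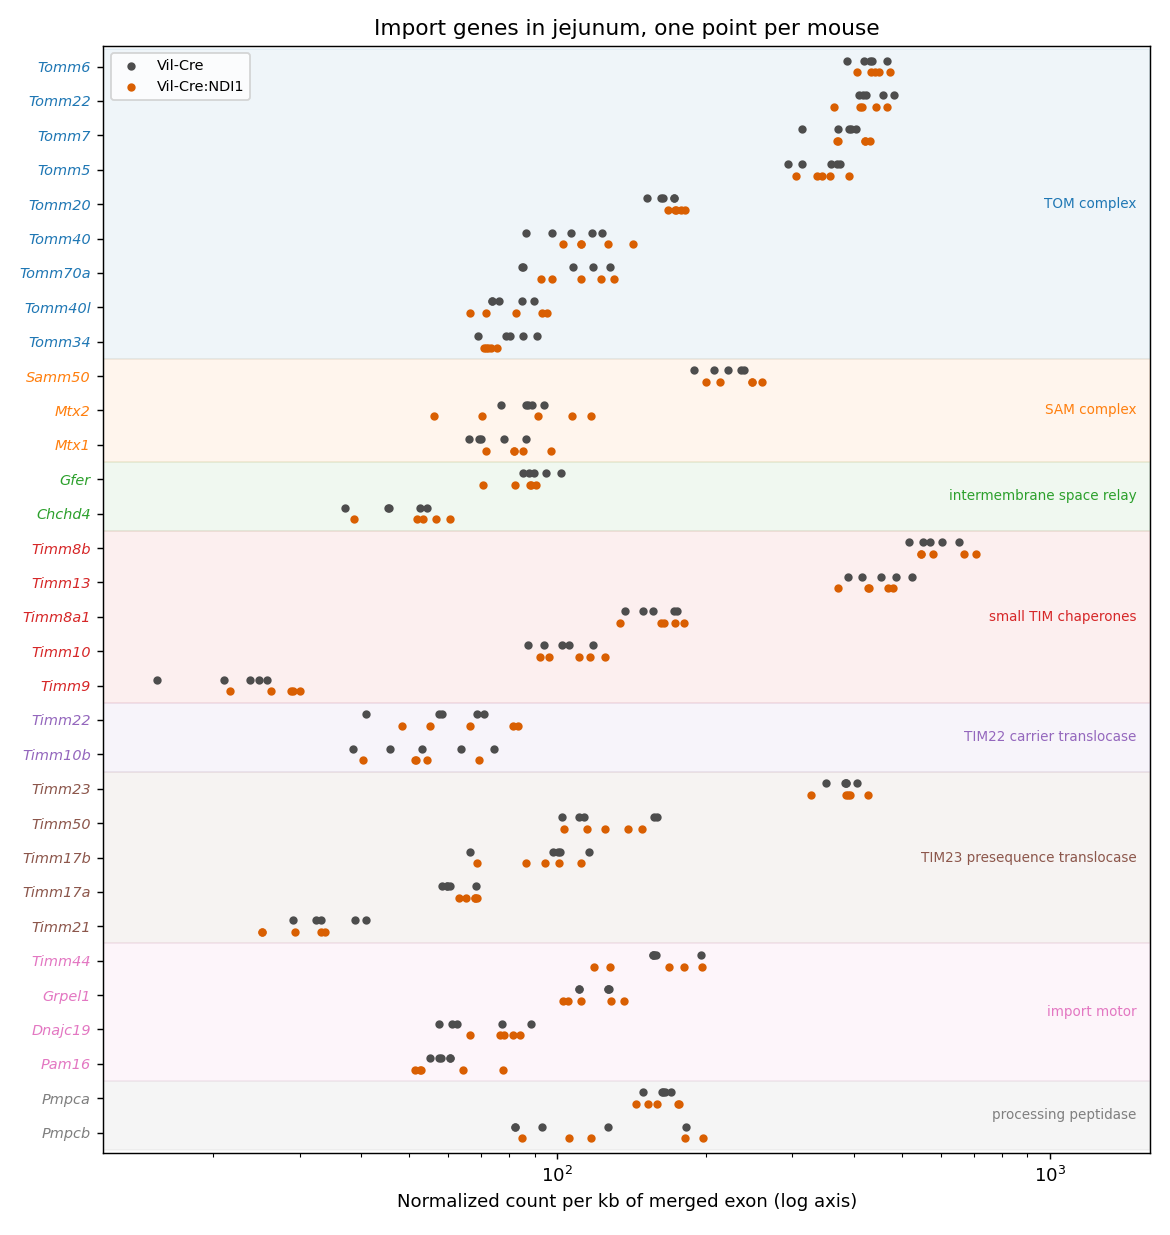
Normalized count per kb of merged exon (log axis) for the 32 import genes that passed the filter, ordered by complex and then by level, with 1 point per mouse in grey for Vil-Cre and orange for Vil-Cre:NDI1. Timm8b lies between 518 and 709 and Timm9 between 15.4 and 30.0, and the points of both genotypes overlap for every gene.

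The comparison of genotypes asked whether import genes differ when the epithelium carries NDI1. None of the 32 members passed an adjusted p of 0.05 in limma's test, where 0.00699% of the 14301 genes tested did, which is NDI1 alone. At an unadjusted p under 0.05 the count was also 0 of 32, against 4.24% of all genes tested, 2.13% higher and 2.11% lower in Vil-Cre:NDI1. DESeq2 and edgeR on the recovered reads called 0 members as well, both at an adjusted p under 0.05 (0.168% and 0.00699% of genes) and at an unadjusted p under 0.05 (6.57% and 4.66% of genes). The members' smallest unadjusted p in limma was 0.0969, and their adjusted p ran from 0.998 to 0.999. The genotypes overlapped for all 32, where 0.699% of all genes did not overlap, 0.406% with Vil-Cre:NDI1 higher and 0.294% with it lower.

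The 95% interval stayed inside 1.5-fold up or down in 29 of 32 members (90.6%), against 53.5% of all genes tested, and within 2-fold for all 32, against 79.6%. The members' median level was also higher, at 332 normalized counts against 190.4. The share within 1.5-fold was 100% for the 37 nuclear complex I subunits and 88.3% for the 77 mitochondrial ribosomal proteins. Both lists were taken by symbol, Nduf for the first and Mrpl or Mrps for the second. A gene so named that lies outside complex I would be counted in the first. The exceptions at 1.5-fold were Timm9, Timm22 and Pmpcb. The log2 fold changes, Vil-Cre:NDI1 minus Vil-Cre, ran from -0.25 to 0.30 with a median of 0.037, and 20 were positive and 12 negative, but with libraries scaled to the same total the median was -0.026 with 14 positive and 18 negative. Over all genes tested the median was 0.0052, with 51.2% positive, and with equal totals it was -0.057, with 36.2% positive.

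**Figure D2:**
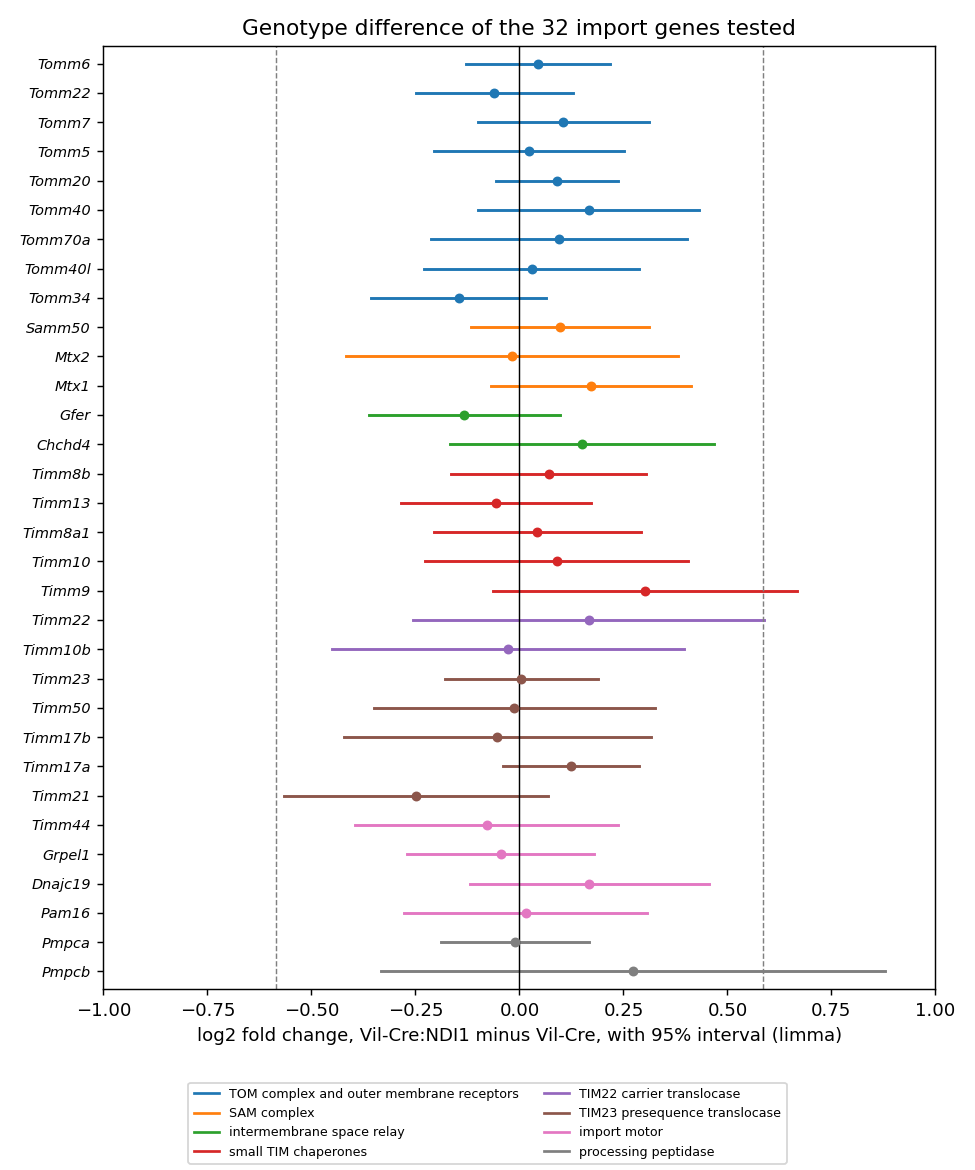
Log2 fold change (Vil-Cre:NDI1 minus Vil-Cre, limma on log2(value + 1), n = 5 and 5) with its 95% interval for the 32 import genes, coloured by complex, with dashed lines at 1.5-fold. Every interval includes 0, and those of Timm9, Timm22 and Pmpcb reach past the upper dashed line.

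Of the 10 members of the TOM complex and its associated receptors and cochaperones, which receive nearly all precursors, 9 were tested, and 7 had a positive log2 fold change and 2 a negative one. Tomm40, the pore itself (chr7:19701313-19715438, minus strand), had normalized counts of 482, 390, 440, 530 and 557 in Vil-Cre 1 to 5 and of 464, 573, 504, 504 and 643 in Vil-Cre:NDI1 1 to 5. The highest mouse carried NDI1 and the lowest did not, but the other 8 mixed. The log2 fold change was 0.17 ± 0.12 (SE), with an adjusted p of 0.998 in limma. Tomm34, a cytosolic cochaperone of precursors, had 259, 244, 210, 240 and 277 in Vil-Cre and 223, 220, 229, 215 and 218 in Vil-Cre:NDI1. The Vil-Cre:NDI1 values sat close together and below all Vil-Cre values but that of Vil-Cre 3. Its log2 fold change was -0.15 ± 0.096, adjusted p = 0.998 in limma, and the exact permutation p, two-sided and unadjusted, was 0.0556.

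Tomm20, the receptor that first binds presequences (chr8:126930667-126945844, minus strand), had 848, 798, 805, 845 and 745 in Vil-Cre and 824, 852, 891, 856 and 876 in Vil-Cre:NDI1. All mice with NDI1 but the first lay above all controls, and the means were 808 ± 42.0 and 860 ± 25.2 (SD, n = 5 each). Its exact permutation p was 0.0397, and the adjusted value over all genes tested was 0.999. Such an exact p under 0.05 was found for 2 of the 32 members, Tomm20 and Timm17a, against 4.46% of all genes tested. In limma Tomm20 had a log2 fold change of 0.090 ± 0.067 and an unadjusted p of 0.203. The other TOM members tested, Tomm5, Tomm6, Tomm7, Tomm22, Tomm40l and the carrier receptor Tomm70a, had log2 fold changes between -0.061 and 0.11.

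The SAM complex folds barrel proteins such as Tomm40 into the outer membrane, and its 3 members were all tested. Samm50, its central barrel subunit and the member with the most reads (chr15:84192241-84217267, plus strand), had 1455, 1366, 1567, 1549 and 1240 in Vil-Cre and 1628, 1710, 1633, 1313 and 1403 in Vil-Cre:NDI1. The 3 highest mice carried NDI1, and the other two mice with NDI1 lay among the controls. The log2 fold change was 0.097 ± 0.098, adjusted p = 0.998 in limma. Mtx1, a metaxin on the cytosolic face, had 309, 237, 280, 251 and 249 in Vil-Cre and 293, 257, 305, 293 and 347 in Vil-Cre:NDI1, a log2 fold change of 0.17 ± 0.11 with an adjusted p of 0.998 in limma. One control, Vil-Cre 1, exceeded all mice with NDI1 but the last. Mtx2, the partner of Mtx1, had 345, 282, 318, 321 and 327 in Vil-Cre and 336, 431, 393, 207 and 258 in Vil-Cre:NDI1. Of the mice with NDI1, 2 lay above the whole Vil-Cre range, 2 below it and 1 within it, with an SD of 92.8 against 22.8 and a log2 fold change of -0.019 ± 0.18.

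Of the intermembrane space relay, Chchd4, the oxidoreductase that puts disulfides into incoming proteins (chr6:91462172-91473546, minus strand), had 236, 282, 274, 236 and 192 in Vil-Cre and 315, 278, 295, 201 and 269.98 in Vil-Cre:NDI1. Only Vil-Cre:NDI1 4 among the mice with NDI1 lay below the middle control, and the log2 fold change was 0.15 ± 0.15, adjusted p = 0.998 in limma. Gfer, the sulfhydryl oxidase that reoxidizes Chchd4, had 190.42 to 227 in Vil-Cre and 158 to 202 in Vil-Cre:NDI1, a log2 fold change of -0.13 ± 0.11.

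Of the 6 small TIM chaperones, which hold hydrophobic carriers in solution, 5 were tested. Timm9 (chr12:71123173-71136684, minus strand) had the smallest unadjusted p of all members. Its normalized counts were 107, 102, 66.1, 110.2 and 90.3 in Vil-Cre and 124, 128, 112, 123 and 92.7 in Vil-Cre:NDI1. All mice with NDI1 but the last lay above all controls, and Vil-Cre 3 lay lowest. The log2 fold change was 0.30 ± 0.17, with an unadjusted p of 0.0969 and an adjusted p of 0.998 in limma. Timm10, which forms rings with Timm9, had 83.2, 71.1, 96.2, 85.9 and 76.7 in Vil-Cre and 78.4, 90.2, 102, 94.99 and 75.1 in Vil-Cre:NDI1. These values interleaved, and the log2 fold change was 0.089 ± 0.14. Timm8a1, Timm8b and Timm13 had log2 fold changes between -0.056 and 0.070. Timm8a2 was at 0 to 2 reads per library in both groups, so no fold is given.

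The TIM22 translocase inserts carriers into the inner membrane. Its channel Timm22 (chr11:76406952-76416292, plus strand) had 183, 219, 130.2, 186 and 226 in Vil-Cre and 212, 265, 259, 175 and 154 in Vil-Cre:NDI1. The mice with NDI1 included both of the highest values of all 10 mice, and the lowest was a control. The log2 fold change was 0.17 ± 0.19, adjusted p = 0.998 in limma. Timm10b, the chaperone docked on this translocase, had 138 to 266 in Vil-Cre and 144 to 249 in Vil-Cre:NDI1, with a log2 fold change of -0.027 ± 0.19.

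Of the TIM23 presequence translocase, the channel Timm23 (chr14:32180162-32201898, minus strand) had the largest p of the 32 members. It had 689, 626, 686, 689.56 and 725 in Vil-Cre and 696, 762, 701, 688 and 586 in Vil-Cre:NDI1. The means were 683 ± 35.6 and 687 ± 63.5, and the log2 fold change was 0.0040, with a 95% interval from -0.18 to 0.19 and a sign that turned under edgeR and with equal totals. Timm17a, which forms the channel with Timm23, had 477, 541, 459.85, 471 and 471 in Vil-Cre and 537, 538, 543, 498 and 516 in Vil-Cre:NDI1. All controls but Vil-Cre 2 lay below all mice with NDI1, and the log2 fold change was 0.12 ± 0.075. The exact permutation p was 0.0476, adjusted to 0.999 over all genes tested, and the unadjusted p in limma was 0.125.

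Timm21, which links the TIM23 complex to the outer membrane and to the respiratory chain, had 145, 124, 108, 153 and 120.4 in Vil-Cre and 125, 93.8, 109, 123 and 93.9 in Vil-Cre:NDI1. Both of the lowest mice carried NDI1 and both of the highest did not, with the other 6 mixed. The log2 fold change was -0.25 ± 0.14, adjusted p = 0.998 in limma. Timm17b and the presequence receptor Timm50 had log2 fold changes of -0.053 and -0.012.

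The import motor draws precursors into the matrix, and 2 of its 4 members had a positive log2 fold change. Timm44, which tethers mitochondrial Hsp70 to the channel (chr8:4259731-4275913, minus strand), had 581, 575, 574, 575 and 718 in Vil-Cre and 619, 722, 661, 468 and 435 in Vil-Cre:NDI1. The controls other than Vil-Cre 5 lay between 574 and 581, Vil-Cre 5 lay far above them, and the mice with NDI1 fell on both sides. The log2 fold change was -0.079 ± 0.14, adjusted p = 0.998 in limma. The nucleotide exchange factor Grpel1 (-0.045), the J-domain protein Dnajc19 (0.17) and its J-like partner Pam16 (0.015) had log2 fold changes with intervals that included 0.

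The processing peptidase is a dimer of Pmpca, which recognizes presequences, and Pmpcb, which cuts them. Pmpcb (chr5:21737141-21757152, plus strand) had 421, 479, 939.73, 651 and 422 in Vil-Cre and 1016, 932, 603, 543 and 435 in Vil-Cre:NDI1. Vil-Cre 3 and Vil-Cre:NDI1 1 and 2 lay at 932 or above, and the others at 651 or below. The means were 583 ± 221 and 706 ± 254, and the log2 fold change was 0.27 ± 0.28 with an adjusted p of 0.998 in limma. Leaving out Vil-Cre 3 raised the log2 fold change to 0.46, and leaving out Vil-Cre:NDI1 1 lowered it to 0.12. DESeq2 and edgeR on the 8 libraries without Vil-Cre 3 and 4 gave Pmpcb an unadjusted p of 0.00827 and 0.0353, with adjusted p of 0.171 and 0.527. Pmpcb and Tomm34 were the 2 members at an unadjusted p under 0.05 there, against 12.2% and 8.74% of all genes tested, and no member passed the adjusted threshold, against 1.8% and 0.00699%. Pmpca lay between 617 and 757 over all 10 mice, 1.23-fold from lowest to highest, with a log2 fold change of -0.011 ± 0.081.

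The spread between mice was small for most members. The median within-genotype SD of log2(value + 1) was 0.167 over the 32 members and 0.292 over all genes tested, and it falls with level. It was 0.148 over the complex I subunits and 0.189 over the mitochondrial ribosomal proteins. Compared with genes of a similar level, within 2-fold of its own mean, a member was less variable than 75.1% of them in the median. From lowest to highest mouse, 18 members spanned under 1.5-fold, and Pmpcb (2.41-fold), Mtx2 (2.09-fold) and Timm22 (2.04-fold) spanned more than 2-fold. Tomm20 had an SD of 0.061, with 99.0% of genes of its level more variable, and Timm17a had 0.075, with 98.1% more variable.

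Pmpcb stood at the other end with an SD of 0.51, where 5.57% of genes at a similar level were more variable. Both genotypes held mice at 435 or below and mice at 932 or above. No annotated exon of another gene overlapped it. Its nearest neighbours had a smaller SD, which was 0.27 for Dnajc2 and 0.090 for Psmc2, which lie just downstream, and 0.31 for Napepld and 0.22 for Armc10 upstream. Reln, further downstream and at a median of 76.8 normalized counts, had an SD of 0.53. The 3 mice lowest in Pmpcb, Vil-Cre 1, Vil-Cre 5 and Vil-Cre:NDI1 5, had median deviations of the enterocyte markers of 0.060, -0.54 and 0.18.

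**Figure D3:**
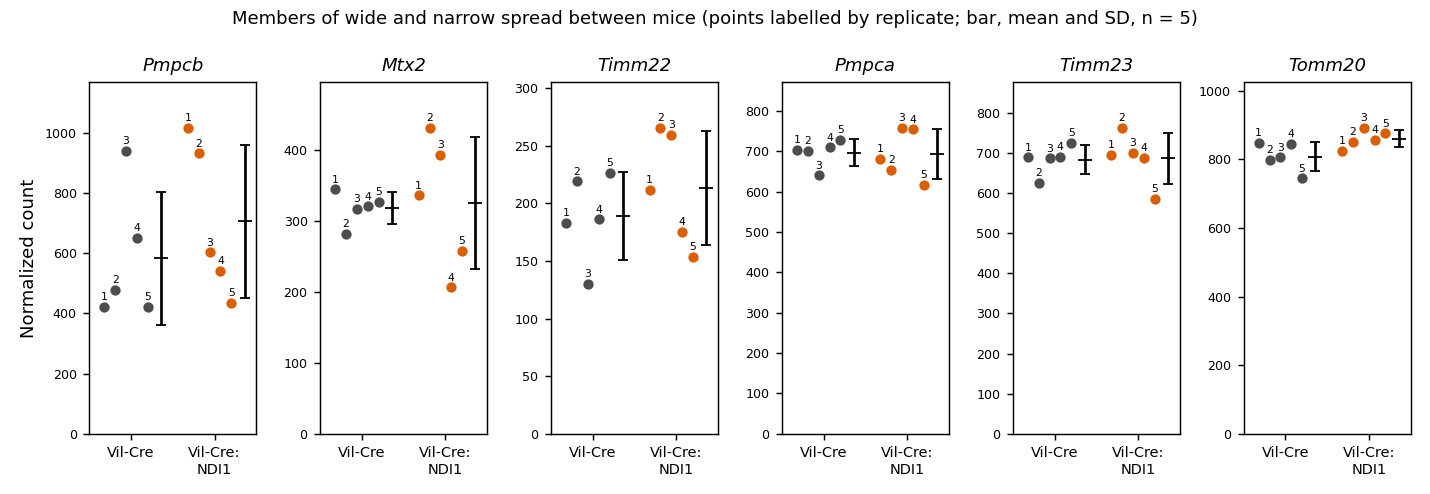
Normalized counts of 6 import genes in each mouse, labelled by replicate number, in grey for Vil-Cre and orange for Vil-Cre:NDI1, with the mean and SD beside them (n = 5). Pmpcb, Mtx2 and Timm22 span 2.41-, 2.09- and 2.04-fold between mice, while Pmpca, Timm23 and Tomm20 span 1.23-, 1.30- and 1.20-fold.

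**Figure D4:**
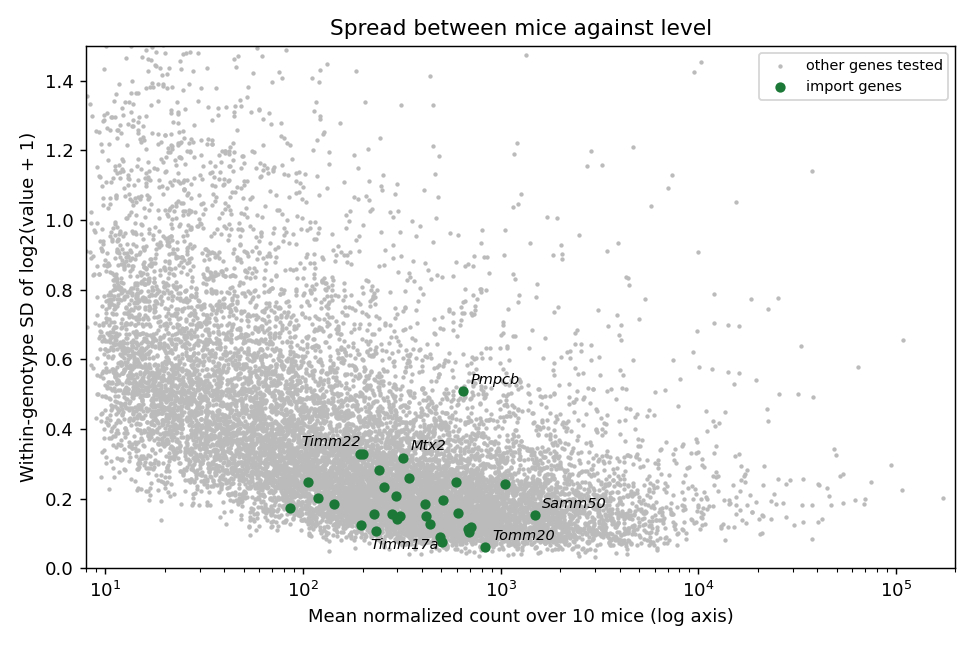
Within-genotype SD of log2(value + 1) against mean normalized count (log axis) for the genes tested, with the 32 import genes in green. Genes with an SD above 1.5 lie beyond the axis. Pmpcb (0.51) lies above most genes of its level and Tomm20 (0.061) below nearly all.

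Mouse by mouse, the members did not move far together. The median deviation of the 32 from their genotype mean ran from -0.098 in Vil-Cre:NDI1 5 to 0.061 in Vil-Cre 1 on the log2 scale. In Vil-Cre 1, 24 of 32 members lay above the Vil-Cre mean, and in Vil-Cre:NDI1 5, 11 of 32 lay above the Vil-Cre:NDI1 mean. For the nuclear complex I subunits the same median ran from -0.22 in Vil-Cre:NDI1 4 to 0.17 in Vil-Cre 3, and for mitochondrial ribosomal proteins from -0.11 in Vil-Cre:NDI1 5 to 0.056 in Vil-Cre:NDI1 2. The enterocyte markers had medians of 0.18 in Vil-Cre:NDI1 5 and -0.26 in Vil-Cre:NDI1 4, and their part in the members' deviations was not tested.

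In all, 11 pairs of paralogues or physical partners were compared within each mouse, as the log2 ratio of normalized counts per kb of merged exon. The ratio lay on one side of 0 in 10 of 10 mice for 9 pairs. Each had an exact sign-flip p of 0.00195, the smallest 10 mice can give, and an adjusted p of 0.00239 over the pairs. Among the 9 is Tomm20 over Tomm20l, whose side was settled beforehand by the near absence of Tomm20l reads. The sign-flip p covers the spread between mice and not the choice of length, which is a constant for each pair. Timm17b exceeded Timm17a per kb, with a ratio of -0.55 ± 0.28 (SD, n = 10). In normalized counts Timm17a was the higher, with means of 484 in Vil-Cre and 527 in Vil-Cre:NDI1 against 246 and 237 for Timm17b. Tomm40 exceeded Tomm40l, most of whose exonic bases overlap Nr1i3, by 0.48 ± 0.30, although Vil-Cre 2 was close to even at 0.026. Of the motor's paralogues, Grpel1 was 2.23-fold Grpel2 and Dnajc19 was 4.34-fold Dnajc15. With the longest transcript as the length these were 1.33-fold and 6.65-fold, and Tomm40 over Tomm40l went from 1.39-fold to 2.08-fold. Timm8b exceeded Timm8a1, with a ratio of -1.89 ± 0.22.

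Among the partners, Timm9 stood at 0.233 times Timm10, Timm8a1 at 0.363 times Timm13 and Chchd4 at 0.560 times Gfer per kb. In normalized counts Chchd4 was the higher, with means of 244 in Vil-Cre and 272 in Vil-Cre:NDI1 against 205 and 187 for Gfer. For Timm9 over Timm10 the log2 ratio per kb ran from -2.93 in Vil-Cre 3 to -1.73 in Vil-Cre:NDI1 1. This order rests on the merged exon lengths, 4282 bases for Timm9 and 815 for Timm10. With the longest transcript as the length, Timm9 stood at 0.329 times Timm10. Timm9 was the higher in normalized counts in all mice but Vil-Cre 3 (66.1 against 96.2). Which transcripts were expressed was not measured, so the ratio cannot show whether the mRNAs of this ring are unequal. The same limit holds for Timm17a over Timm17b and Chchd4 over Gfer, whose order per kb was the reverse of that of the mean normalized counts. Pmpca exceeded Pmpcb in 7 of 10 mice, with a mean log2 ratio of 0.45 ± 0.54 and an exact sign-flip p of 0.0332, adjusted to 0.0365. The 3 mice with the opposite order, Vil-Cre 3, Vil-Cre:NDI1 1 and Vil-Cre:NDI1 2, were those with the highest Pmpcb, and the call was lost on leaving out any of 7 of the mice. Mtx1 and Mtx2 were near even, with a ratio of -0.14 ± 0.37 and an exact adjusted p of 0.275, and the order turned to 0.70 with the longest transcript as the length, exact adjusted p = 0.00215.

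Tomm20 had 8359 reads over all libraries and its paralogue Tomm20l had 1, in Vil-Cre 4. Per kb the ratio was 1230 with a 95% Poisson interval from 220.0 to 48500, which covers counting error only. None of the 11 ratios differed between genotypes after adjustment, with exact permutation p adjusted to 0.175 or above. The lowest unadjusted p, 0.0159, was for Tomm20 over Tomm20l, and that ratio rests on the pseudocount and on the 1 read of Tomm20l.

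**Figure D5:**
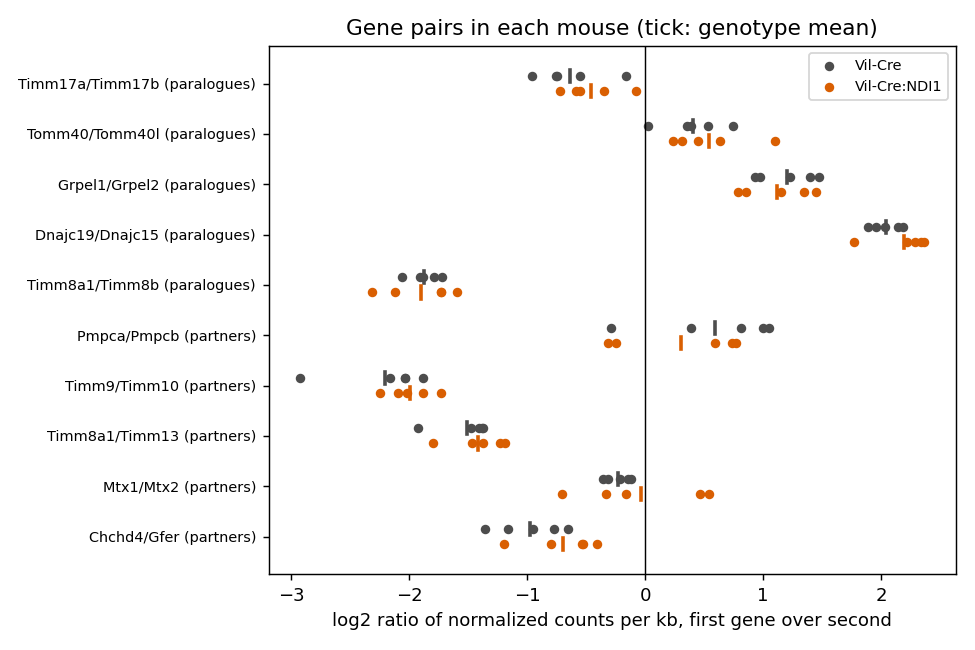
Log2 ratio of normalized counts per kb (first gene over second) in each mouse for 10 gene pairs, in grey for Vil-Cre and orange for Vil-Cre:NDI1, with a tick at each genotype mean. For 8 of these pairs all mice lie on one side of 0, while Pmpca over Pmpcb and Mtx1 over Mtx2 cross it.

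A list of 22 other genes of the import pathway was tested in full, among them the matrix chaperones Hspa9 and Hspd1, the presequence proteases Mipep and Pitrm1 and the insertase Oxa1l. None passed an adjusted or an unadjusted p of 0.05 in limma, and the median log2 fold change was 0.031 with 15 positive and 7 negative. Signs with equal totals were not counted for this list. That scaling took all genes tested from 51.2% to 36.2% positive. The smallest p in the list was that of Agk, a lipid kinase that is also a subunit of the TIM22 translocase. Agk was named here after its values were seen. It had 77.6, 90.8, 104, 97.1 and 85.5 in Vil-Cre and 68.6, 68.3, 85.2, 82.3 and 71.6 in Vil-Cre:NDI1. All mice with NDI1 lay below all controls but Vil-Cre 1, with a log2 fold change of -0.27 ± 0.14 and an adjusted p of 0.998 in limma, and its exact permutation p, unadjusted, was 0.0317. The 37 nuclear complex I subunits had a median log2 fold change of 0.065 with 32 positive (86.5%), and 20 positive with equal totals. The 77 mitochondrial ribosomal proteins had a median of 0.032 with 49 positive (63.6%), and 29 positive with equal totals. At an unadjusted p under 0.05 were 2 complex I subunits, both higher in Vil-Cre:NDI1, and 2 ribosomal proteins, both lower, beside the 4.24% of all genes.

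By the GENCODE M21 annotation of GRCm38, 17 members shared exonic sequence with another gene, 15 of them with a gene on the opposite strand. The strand setting of the counting is not given in the sources used here, so reads of such neighbours cannot be told apart from the members'. The overlap was largest for Tomm6, where 76.0% of exonic bases are shared with Gm21981 on the same strand, and for Tomm40l, where 64.3% are shared with Nr1i3, a nuclear receptor with a mean of 801 normalized counts. Pmpca shared 20.4% with Inpp5e and Mtx1 21.2% with Gm43737. The levels of these 4 genes are therefore uncertain. Tomm20l and Timm9 are neighbours whose last exons overlap by 49 bases.

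The starts of 8 of the 34 members faced the start of another protein-coding gene within 1000 bases (23.5%), against 11.3% of all protein-coding genes tested, 35.1% of the complex I subunits and 29.9% of the mitochondrial ribosomal proteins. Timm8b faced Sdhd, the membrane anchor of succinate dehydrogenase, at 98 bases. Pmpca faced Entr1 at 23, Timm23 faced Parg at 51, Gfer faced Noxo1 at 78 and Timm17b faced Pqbp1 at 88 bases. Chchd4 and Tmem43 started 157 bases apart, Timm9 and 2700049A03Rik 164 bases, and Tomm6 and Frs3 644 bases.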

How the data were processed

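RNA was sequenced from the jejunum of 10 mice, 1 library each, as single-end reads. The authors ran the nf-core RNA-seq pipeline, in which trimGalore! removed adapters, STAR placed the reads on GRCm38 plus an NDI1 sequence, and Salmon gave a count to each gene. The deposited values are a signal, counts per gene divided by 1 DESeq2 size factor per library, so no count test was the main test. Reads were recovered by dividing by each library's smallest non-zero value; 100% of non-zero values came out whole within 0.001. The Poisson interval of a read ratio covers counting error only, and limma's intervals cover the spread between mice.

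limma 3.58.1 (R 4.3.3, eBayes with a variance trend) was fitted to log2(value + 1) over 14301 genes, with Benjamini-Hochberg adjustment over all of them and a threshold of 0.05. A fold change on this scale understates that of low genes. DESeq2 1.42.0 (local fit) and edgeR 4.0.16 (quasi-likelihood, TMM) on the reads were alternatives, and the fits were tested on simulated data. Exact permutation tests were two-sided over all assignments of the mice. Lengths, positions and overlaps came from GENCODE M21 on GRCm38, which held all 34 identifiers; the authors' annotation release is not given in the sources used here. Values per mouse were given for the 6 members with the smallest p, a core member of each complex and the pair whose ratio had an unadjusted p under 0.05 between genotypes; Mtx2 and Agk were added after their values were seen. This gene family, the lists and the motifs were chosen with earlier results of these data known.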

Additional observations from a re-analysis of the deposited data

Results flagged for a closer look

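In the 64 groups of 5 mice formed by the 32 members and 2 genotypes, 2 had a mouse whose gap to the nearest other exceeded 0.71 of the group's range, and chance gives about 3.2. Timm44 in Vil-Cre 5 stood at 717.7 normalized counts, and the 4 remaining Vil-Cre mice at 574.1 to 581.2, a gap of 0.95 of the range. In the same mouse the enterocyte markers had a median deviation of -0.54 and the proliferating crypt markers of 0.51 on the log2 scale, and their part in the Timm44 value was not tested. Without Vil-Cre 5 the log2 fold change of Timm44 stayed uncalled, adjusted p in limma 0.945 or above over the fits without 1 mouse. Timm17a in Vil-Cre 2 stood at 540.6 against 459.8 to 477.5 in the others, a gap of 0.781, and it was the control that lay within the range of the mice with NDI1.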

How the results depend on the processing

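No alternative called a member at an adjusted p under 0.05. The number at an unadjusted p under 0.05 went from 0 to 2 with DESeq2 and to 2 with edgeR on 8 libraries, without Vil-Cre 3 and 4, whose value of 1 read lies close to 1, an alternative chosen after seeing the data. The 2 were Tomm34 (-0.23 and -0.25) and Pmpcb (0.68 and 0.66), where 12.2% and 8.74% of all genes were at that p, and dropping the high Vil-Cre 3 value of Pmpcb is part of this setting. Leaving out 1 mouse gave 0 to 1: Dnajc19 (0.26, adjusted p = 0.938) without Vil-Cre 3 and Timm9 (0.38, adjusted p = 0.999) without Vil-Cre:NDI1 5, both in limma. The median log2 fold change was 0.023 to 0.068 without 1 mouse and -0.026 with equal library totals, a scaling that moves all genes.

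Of the named genes, Timm23 changed sign with equal totals (-0.059), with edgeR on 10 libraries (-0.0033) and on 8 (-0.0030), and ran from -0.035 to 0.060 without 1 mouse, being negative without Vil-Cre 2 (-0.027) and without Vil-Cre:NDI1 1 (-0.0022), 2 (-0.035) or 3 (-0.0048). Timm44 ran from -0.16 to 0.018, positive without Vil-Cre:NDI1 5 (0.018). Without 1 mouse, genotype differences of log2 ratios ran from -0.0035 (without Vil-Cre 3) to 0.20 for Timm8a1/Timm13, from -0.10 to 0.078 for Timm8a1/Timm8b, positive without Vil-Cre 5 (0.011) and Vil-Cre:NDI1 2 (0.078) or 4 (0.028), and from -0.0016 (without Vil-Cre:NDI1 5) to 0.22 for Tomm40/Tomm40l. None of these was called in any fit, and the causes were not tested. The log2 ratio Mtx1/Mtx2 turned to 0.70 with the longest transcript, and Pmpca/Pmpcb ran from 0.38 to 0.53 without 1 mouse.

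The labels do not say whether the replicate numbers pair the mice. The correlations of same-numbered deviations were -0.12, 0.0024, 0.14, -0.11 and -0.035, which cannot show whether such mice were littermates or handled together. With the replicate number as a block, 0 members were called and the median stayed at 0.037.

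With 5 mice a group, each member's difference was bounded only by its 95% interval, which is not adjusted for the number of genes. Pmpcb was bounded only between 0.795- and 1.84-fold. A call at an adjusted p under 0.05 needed more than an interval without 0. In limma the smallest unadjusted p of a mouse gene, 8.7e-06, had an adjusted p of 0.0625. These are mRNA levels in whole tissue, so protein and epithelial cells alone were not measured.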
